A study of Mus musculus with 9 samples.

Results

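The genes described here are 45 genes of the cell division cycle, taken by name from the whole of the 24133 genes that the array probes could be assigned to. They comprise 16 genes of the G1/S transition and DNA replication, called replication members below, and 25 genes of the G2/M transition and mitosis, called mitotic members. The D-type cyclins Ccnd1 and Ccnd2 and the inhibitors of cyclin-dependent kinases Cdkn1a and Cdkn2b complete the set. The arrays carried 62 probes for the 45 genes. Testing required that every array of 1 group or more read the probe well above background, which held for 44 of the 45 and for 18369 genes in all. Cenpf, a kinetochore protein gene, was not tested, because its probe was well above background on 2 Ctrl, 2 T and 0 M arrays.

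RNA came from peritoneal macrophages of male mice, isolated by flow cytometry as CD45+F4/80+ cells, and was hybridised to 9 1-colour arrays, 3 per group. Macrophages kept alone in regular medium for 24 h formed Ctrl. Macrophages that spent 24 h with the mouse colon carcinoma line CT-26, in the lower chamber of a Transwell (a well divided by a porous membrane), formed T. Macrophages that had migrated, taken from the upper chamber of such a co-culture, formed M, for which the sources used here give no duration. The labels name no strain, age or allele. They do not say whether the samples of a group are separate cultures or mice, so a p-value speaks to variation among the arrays, possibly technical, and not among animals. The cell type field calls the T samples migratory, whereas the titles, descriptions and agents give that word or the upper chamber to M, and the groups follow the titles.

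Levels are log2 processed signals relative to the 75th percentile of the array, so 0 is that percentile and levels of different genes are not comparable. The T arrays were on one slide and the Ctrl and M arrays on another, so for every comparison with T, group and slide cannot be told apart, while M and Ctrl were compared within 1 slide. Between 60.5% and 78.7% of probes per array were well above background, and replicate spots varied most on M1 and M3 (15.02% and 19.8% against 4.39% to 8.72% on the other arrays). Of 12 macrophage markers 11 were tested, and 3 of them were higher in T than in Ctrl (27.3%, against 17.6% of all genes). In M 4 were higher than in Ctrl (36.4%, against 12.2% of all genes). In M relative to T 3 were higher and 1 lower (27.3% and 9.09%, against 14.6% and 10.8%). The sorting markers Ptprc (CD45) and Adgre1 (F4/80) differed by 0.02 and 0.10 between T and Ctrl without passing the test. They were 0.80 and 2.86 higher in M than in Ctrl, which passed.

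Cells enter the division cycle when D-type and E-type cyclins and their kinases release E2F transcription factors, which switch on the genes for origin licensing, nucleotide supply and the replication machinery. Later in the cycle a second wave of genes is switched on through MYB, the MuvB complex and FOXM1, and supplies the kinases, motors and checkpoint proteins of mitosis. Resident peritoneal macrophages can renew themselves by division, and growth factors of the CSF1 family drive it.

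Of the 24 tested mitotic members 17 were lower in T than in Ctrl, while 1 of the 16 replication members was, against 27.3% of all genes. The mitotic count depended on the scaling, and was 1 of 24 under median scaling. The replication members had a mean level of 2.05 ± 0.19 (SD, n = 3) in Ctrl, against 2.09 ± 0.02 in T and 2.18 ± 0.05 in M. For the mitotic members the mean level came to 2.29 ± 0.15 in Ctrl, 1.64 ± 0.06 in T and 2.29 ± 0.08 in M. The replication mean minus the mitotic mean, which does not move with the scaling of an array, was -0.26, -0.29 and -0.18 on the Ctrl arrays, 0.47, 0.46 and 0.40 on the T arrays, and -0.15, -0.15 and -0.02 on the M arrays. The T arrays stood apart from all others on this measure, and the M arrays lay just above the highest Ctrl array. No test is given for these means, because they sum over genes chosen with results of these data known. In bulk RNA, fewer dividing cells and less RNA of these genes per cell cannot be told apart.

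**Figure D1:**
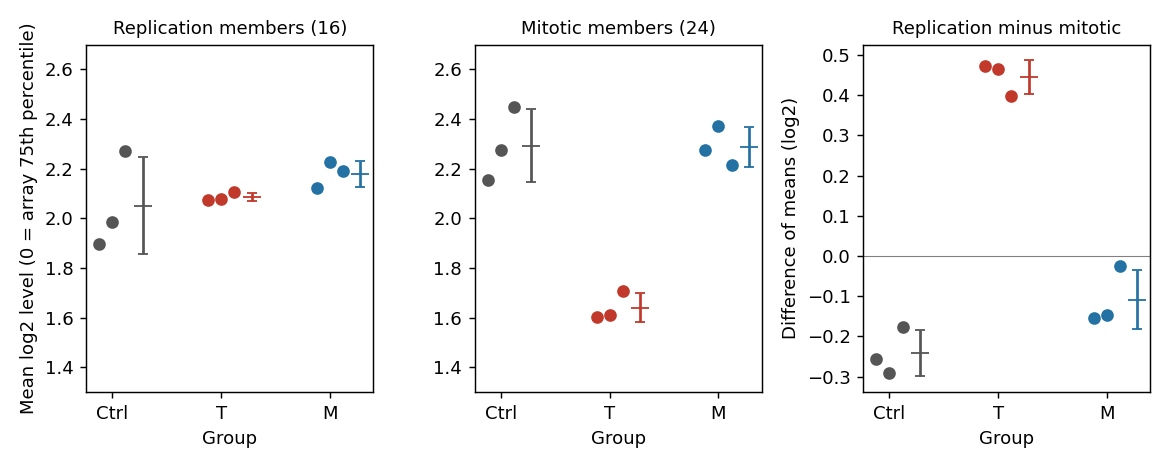
Mean log2 level of the 16 replication members and the 24 tested mitotic members on each array, and the difference of the means, with the group mean and SD (n = 3). The 3 T arrays lie between 1.60 and 1.71 for the mitotic members, below every Ctrl and M array, and the replication means of T lie within the range of Ctrl.

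Over all 18369 genes 44.8% passed the test between T and Ctrl, 17.6% as higher and 27.3% as lower in T, and the median difference was -0.14. Of the 44 tested members 3 were higher and 19 lower in T at an adjusted p of 0.05 (limma, Benjamini-Hochberg over all genes). The mitotic members made up 17 of the 19, so 70.8% of the 24 were lower against 27.3% of all genes. By the same limma fit 0 of the 24 were higher, and at an unadjusted p under 0.05 the counts were 0 higher and 19 lower. Their median difference was -0.72, against -0.09 for the replication members. The arrays of T lay wholly below those of Ctrl for 20 of 24 mitotic members, against 31.0% of all genes (53.5% of all genes did not overlap in either direction). Scaling decided how many single calls stood: under median scaling the median of all genes became 0.28, and 1 of the 24 mitotic members stayed lower. Relative to the median of all genes the mitotic median was -0.58, and 23 of 24 members lay below that median. Median scaling shifts all genes of an array alike, so it could not change these values. They are therefore no check on the scaling. Without array T2 the count of lower mitotic members was 11, because the calls of Mki67, Cdc20, Plk1, Birc5, Ube2c and Foxm1 ended. Over all genes the count of lower genes went from 5013 to 3296 without T2, and the mitotic median was -0.67.

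**Figure D2:**
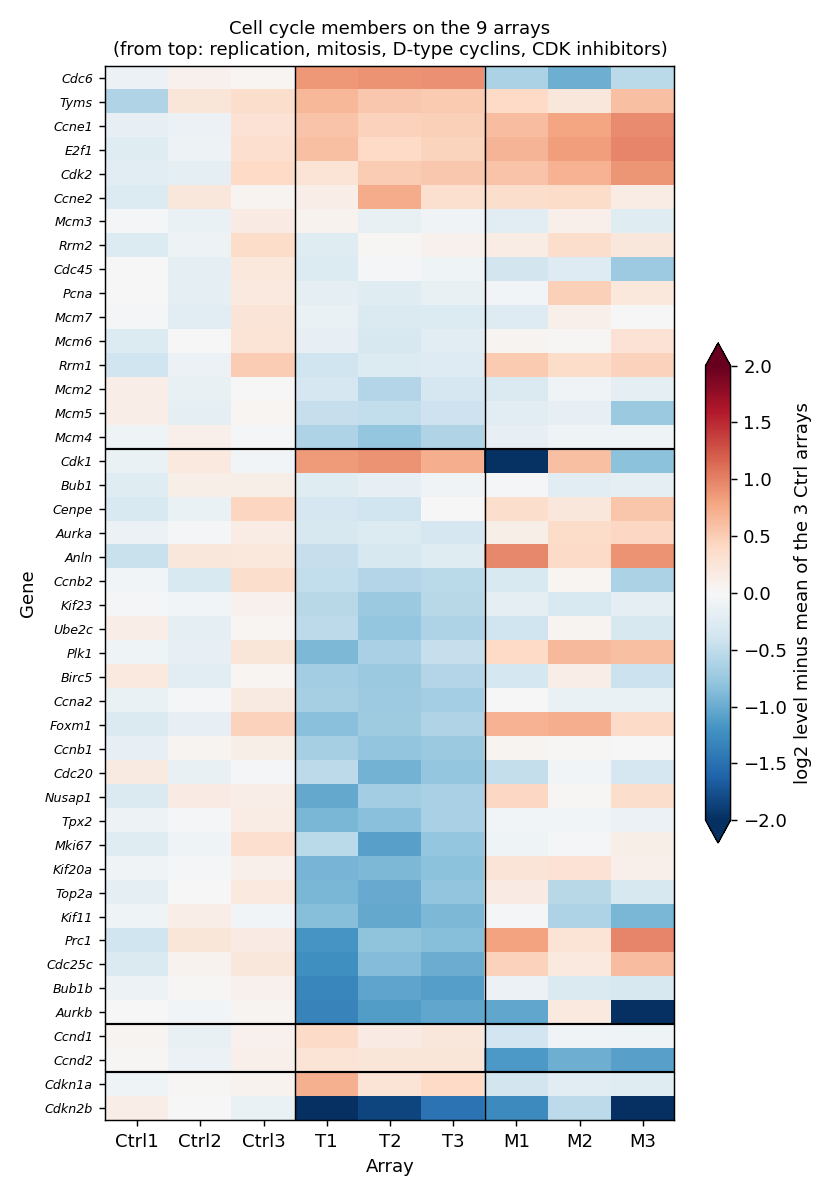
Level of each tested member on each of the 9 arrays minus its mean on the 3 Ctrl arrays (log2), by class and within a class by the difference between T and Ctrl, with colours ending at -2 and 2. The block of mitotic members is blue on the 3 T arrays, apart from Cdk1 at its top, and near white or red on most M arrays.

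Markers of proliferation and chromosome structure were among the genes that fell. Mki67 encodes the Ki-67 protein that coats mitotic chromosomes and is absent from resting cells. Its level was 2.59, 2.74 and 3.16 in Ctrl, 2.29, 1.74 and 2.05 in T and 2.74, 2.81 and 2.95 in M. The T arrays lay below every Ctrl and M array, and Mki67 fell by 0.80 ± 0.21 in T (moderated SE, n = 3 per group, adjusted p = 0.0114), while its second probe fell by 0.82. Top2a, the topoisomerase that untangles sister chromatids, was at 1.17, 1.36 and 1.57 in Ctrl, 0.46, 0.37 and 0.59 in T and 1.54, 0.82 and 1.04 in M. Its T arrays were also the lowest of the 9, and Top2a fell by 0.90 ± 0.21 in T (adjusted p = 0.00773).

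Foxm1, the transcription factor that drives the G2/M wave, was at 1.32, 1.45 and 2.07 in Ctrl, 0.78, 0.90 and 1.004 in T and 2.31, 2.34 and 1.9997 in M. It fell by 0.72 ± 0.22 in T (adjusted p = 0.0237), with no overlap between T and either other group. A second Foxm1 probe gave -1.05. The call on the brighter probe ended without T1, T2 or T3 (adjusted p = 0.0651, 0.0673 and 0.052).

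Cdc25c, Plk1 and Bub1b were also among the members that fell. Cdc25c, a phosphatase that activates CDK1 at mitotic entry, was at 0.92, 1.27 and 1.43 in Ctrl, -0.02, 0.34 and 0.22 in T and 1.66, 1.41 and 1.82 in M. It fell by 1.03 ± 0.20 in T (adjusted p = 0.003), 2.04-fold, and the T arrays did not reach the Ctrl or M arrays. Plk1, a kinase of mitotic entry and spindle assembly, was at 2.17, 2.11 and 2.51 in Ctrl, 1.36, 1.62 and 1.81 in T and 2.67, 2.91 and 2.87 in M, and fell by 0.67 ± 0.19 in T (adjusted p = 0.0161). That call ended without T1 (adjusted p = 0.0541) or T2 (0.0504). Bub1b, the checkpoint kinase gene for BUBR1, was at 2.81, 2.94 and 3.000 in Ctrl, 1.61, 1.86 and 1.82 in T and 2.80, 2.63 and 2.60 in M. It fell by 1.15 ± 0.16 in T, the most among the mitotic members that passed the test (adjusted p = 0.00049), and kept its call under all 23 alternatives run for that comparison (adjusted p up to 0.0261).

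Kif11, Kif20a and Prc1 fell in T as well, whereas the motor gene Cenpe and the cytokinesis gene Anln did not pass the test. Kif11 encodes the motor that pushes spindle poles apart and was at -1.52, -1.30 and -1.49 in Ctrl, -2.29, -2.47 and -2.33 in T and -1.47, -2.05 and -2.35 in M. It fell by 0.92 ± 0.22 in T (adjusted p = 0.00824), with T below Ctrl throughout and M spread across both. Kif20a, a motor of the central spindle, was at 3.18, 3.23 and 3.36 in Ctrl, 2.32, 2.36 and 2.43 in T and 3.51, 3.54 and 3.35 in M, which separated T from both other groups, and fell by 0.89 ± 0.15 (adjusted p = 0.00163). Prc1, which bundles the microtubules of the central spindle, was at 1.48, 2.12 and 2.04 in Ctrl, 0.70, 1.07 and 1.03 in T and 2.69, 2.15 and 2.85 in M. It fell by 0.94 ± 0.24 in T (adjusted p = 0.0114), and every M array was above every Ctrl array. The other mitotic members that fell in T were Ccna2 and Ccnb1, the cyclins of CDK1, Cdc20 and Ube2c, which direct the anaphase-promoting complex, the spindle proteins Tpx2 and Nusap1, the central spindle motor Kif23 and Birc5, the survivin gene of the chromosomal passenger complex. Their log2 differences ran from -0.80 for Tpx2 to -0.62 for Kif23. The fall of Ube2c ended without Ctrl1, T2 or T3 (adjusted p = 0.0598, 0.0774 and 0.0577), and that of Birc5 without Ctrl1 (0.0656) or T2 (0.0694).

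For some of these genes the probes differed. The second probe of Tpx2, much dimmer, was 1.23 higher in T (adjusted p = 0.0198 over all probes), and the mean of both Tpx2 probes gave a difference of 0.22 (adjusted p = 0.444). The other Ccnb1 probes gave 0.43 and -0.49, the second Ube2c probe -0.26, and the other Birc5 probes -0.57 and -0.20. Of these, the Birc5 probe at -0.57 passed the test (adjusted p = 0.0389 over all probes).

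7 mitotic members did not pass the test between T and Ctrl. They were the kinases Bub1 (-0.16), Aurka (-0.31) and Aurkb (-1.17), the kinetochore motor Cenpe (-0.25), the cytokinesis scaffold Anln (-0.34), the mitotic cyclin Ccnb2 (-0.54) and Cdk1 (0.83). Aurkb was at 2.69, 2.64 and 2.74 in Ctrl, 1.35, 1.57 and 1.64 in T and 1.65, 2.89 and 0.53 in M. T lay wholly below Ctrl, and the M arrays ran from the lowest to the highest of the 9, which widens the shared error of the gene to 0.46 (adjusted p = 0.0606).

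Cdk1, the kinase that drives mitosis, was the 1 tested mitotic member above 0 in T. By its brightest probe it was at 1.78, 2.12 and 1.86 in Ctrl, 2.77, 2.82 and 2.65 in T and -0.06, 2.52 and 1.10 in M, with T above every Ctrl array and the M arrays far apart. The difference between T and Ctrl was 0.83 ± 0.50 (adjusted p = 0.198). A second probe, whose 60 bases overlap the first by 41 bases at an offset of 19, was at 2.32, 2.32 and 1.95 in Ctrl, 1.80, 1.79 and 1.63 in T and 1.39, 2.22 and 1.81 in M, a difference of -0.45 between T and Ctrl that did not pass. The first 30 bases of both are shown because these probes read nearly the same stretch of RNA and gave differences of opposite sign, neither of which passed. Bases that both probes hold are in capitals, and all those shown of the brightest probe are shared.
Cdk1 brightest probe: AACTTAATTAACATGTAAATATTATTCCAT
Cdk1 second probe: ttcttaatttcctacgtatAACTTAATTAA
Each is 81.7% A and T over its whole length. A dimmer Cdk1 probe elsewhere in the gene was 0.32 higher in T and did not pass, so no direction is given for Cdk1.

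Promoters were compared because the mitotic members moved together. Mitotic genes are known to carry a cell cycle homology region, CHR, read by the MuvB complex, and a CCAAT box read by NF-Y, while replication genes are known for E2F sites. RefSeq promoters (GRCm38.p6, 250 bases before to 50 after a start) matched 35 of 45 members with 38 promoters. Aurkb, Ccna2, Ccnd1, Ccnd2, Ccne2, Cdc25c, Foxm1, Kif20a, Mcm4 and Tpx2 had none in the table. The letters searched on both strands were TTTGAA for CHR, CCAAT for the CCAAT box, and TTTCGCGC, TTTGGCGC and TTTCCCGC for E2F. The E2F forms can overlap one another, as they do in Mcm6, and are counted once per promoter. The CHR letters were in 15 of 20 mitotic promoters (75%), 2 of 15 replication promoters (13.3%) and 17.9% of all 32851 promoters. CCAAT was in 85.0%, 73.3% and 37.4%, and an E2F form was in 1 of 20 mitotic promoters, 6 of 15 replication promoters and 1.84% of all. CHR and CCAAT stood together in 70.0% of mitotic promoters against 6.95% of all.

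The windows below are the 100 bases before the start, 5′ to 3′ on the gene's strand, with matches in capitals. The first 6 are mitotic promoters whose window holds CHR and CCAAT. Mcm6 and Rrm1 are replication genes, an origin helicase subunit with an E2F form and a ribonucleotide reductase subunit with CCAAT alone.
Cdc20 (chr4:118437344-118437443, minus strand): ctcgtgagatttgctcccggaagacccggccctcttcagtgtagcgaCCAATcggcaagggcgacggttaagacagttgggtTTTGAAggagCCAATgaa
Cdk1 (chr10:69352913-69353012, minus strand): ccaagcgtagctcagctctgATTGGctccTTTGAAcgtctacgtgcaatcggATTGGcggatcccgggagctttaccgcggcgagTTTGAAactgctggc
Kif11 (chr19:37376282-37376381, plus strand): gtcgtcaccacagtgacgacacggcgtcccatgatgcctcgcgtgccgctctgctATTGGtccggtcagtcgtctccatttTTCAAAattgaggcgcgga
Prc1 (chr7:80294376-80294475, plus strand): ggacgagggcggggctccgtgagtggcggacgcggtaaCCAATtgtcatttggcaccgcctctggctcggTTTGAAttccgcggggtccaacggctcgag
Top2a (chr11:99024190-99024289, minus strand): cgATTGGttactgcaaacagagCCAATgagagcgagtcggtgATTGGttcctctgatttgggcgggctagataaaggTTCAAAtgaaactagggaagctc
Ube2c (chr2:164769829-164769928, plus strand): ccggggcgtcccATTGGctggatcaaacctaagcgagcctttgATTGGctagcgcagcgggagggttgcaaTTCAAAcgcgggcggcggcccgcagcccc
Mcm6 (chr1:128359706-128359805, minus strand): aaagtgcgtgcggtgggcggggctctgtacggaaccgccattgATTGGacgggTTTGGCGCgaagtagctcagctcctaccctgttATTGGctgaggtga
Rrm1 (chr7:102441595-102441694, plus strand): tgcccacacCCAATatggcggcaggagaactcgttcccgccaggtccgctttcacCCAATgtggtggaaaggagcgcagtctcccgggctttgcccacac
On the other strand CHR reads TTCAAA and the CCAAT box ATTGG, as in Kif11, Top2a and Ube2c. Cdc20, Kif11, Prc1, Top2a and Ube2c fell in T, and Cdk1, with CHR letters at 2 places in its window, had no settled direction. Among mitotic members with CHR letters 9 of 13 tested fell in T, with a median difference of -0.67, and among those without 3 of 5 fell, with a median of -0.68. The difference between these groups was not tested, and 5 of the 17 members that fell have no promoter in the table. A match is a run of letters and was not tested as a binding site.

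**Figure D3:**
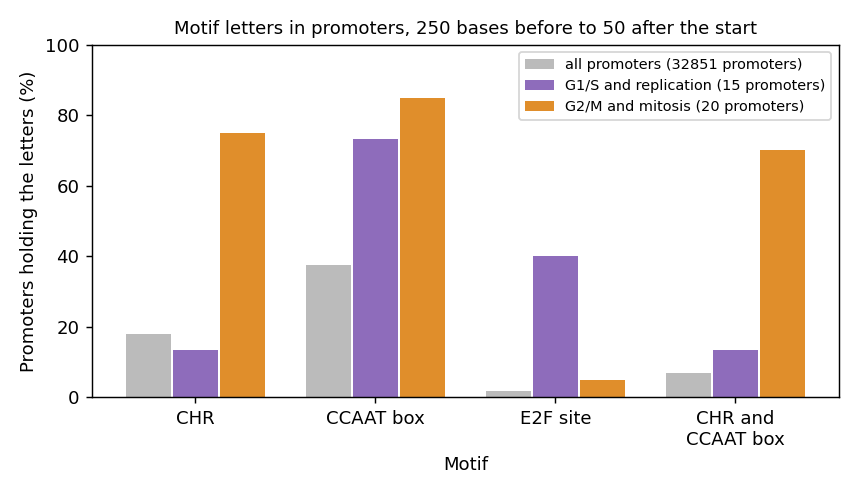
Share of promoters (%) that hold the CHR, CCAAT or E2F letters, or CHR and CCAAT together, for all 32851 RefSeq promoters, the 15 of replication members and the 20 of mitotic members. The CHR bar of the mitotic members (75%) stands above that of the replication members (13.3%), and the order is the opposite for E2F (1 of 20 against 6 of 15).

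Most replication members did not pass the test between T and Ctrl. Of 16, 2 were higher (Cdc6 and Ccne1), 1 was lower (Mcm4) and 13 did not pass, so 12.5% were higher and 6.25% lower, against 17.6% and 27.3% of all genes. Cdc6 loads the helicase onto replication origins. It was at 0.85, 1.05 and 1.01 in Ctrl, 1.83, 1.87 and 1.88 in T and 0.34, -0.01 and 0.43 in M. By this brighter probe the 3 groups did not overlap, with T highest and M lowest, whereas M overlapped Ctrl on the second Cdc6 probe. Cdc6 rose by 0.89 ± 0.17 in T, 1.86-fold (adjusted p = 0.00281), and its second probe rose by 2.38. The call ended with the deposited value table (adjusted p = 0.141) and under no other of the 23 alternatives.

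Ccne1 encodes cyclin E1, the partner of CDK2 at the start of S phase, and was at 2.17, 2.22 and 2.64 in Ctrl, 2.91, 2.80 and 2.81 in T and 2.96, 3.13 and 3.29 in M. T and M lay above Ctrl, and Ccne1 rose by 0.50 ± 0.18 in T (adjusted p = 0.0456), with a second probe at 0.65 (adjusted p = 0.0095 over all probes). With the replicate number as a block Ccne1 and Cdkn1a lost their calls in T (adjusted p = 0.0646 and 0.0851), leaving 1 member higher, Cdc6. The call of Ccne1 ended under 16 of 23 alternatives, among them leaving out any single array except Ctrl3 (adjusted p = 0.0545 to 0.137).

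The transcription factor E2f1 was at 1.47, 1.61 and 2.04 in Ctrl, 2.32, 2.10 and 2.16 in T and 2.39, 2.54 and 2.69 in M, and its T arrays lay above Ctrl by 0.48 ± 0.19 on average without passing (adjusted p = 0.061). The kinase Cdk2 was at 1.35, 1.36 and 1.96 in Ctrl, 1.83, 2.06 and 2.09 in T and 2.13, 2.25 and 2.45 in M, and T and Ctrl overlapped (difference 0.44 ± 0.20, adjusted p = 0.105). Pcna, the sliding clamp of DNA polymerases, was at 4.47, 4.28 and 4.67 in Ctrl, 4.29, 4.24 and 4.32 in T and 4.43, 4.95 and 4.68 in M, and T overlapped the lower Ctrl arrays (difference -0.19 ± 0.19, adjusted p = 0.428). E2f1 and Cdk2 thus stood highest in M, while the levels of Pcna overlapped between M and Ctrl.

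Of the MCM helicase genes 1 passed the test. Mcm4 was at 3.20, 3.39 and 3.26 in Ctrl, 2.67, 2.504 and 2.68 in T and 3.12, 3.20 and 3.19 in M, with T the lowest of all, and fell by 0.66 ± 0.15 (adjusted p = 0.00634). Mcm2 (-0.42), Mcm5 (-0.46), Mcm6 (-0.24), Mcm7 (-0.23) and Mcm3 (-0.04) did not pass, although the arrays of T lay wholly below Ctrl for Mcm2 and Mcm5. Genes of nucleotide supply did not pass either, with Rrm1 at -0.31, Rrm2 at -0.04 and the thymidylate synthase gene Tyms at 0.57. The helicase component Cdc45 (-0.13) and cyclin E2, Ccne2 (0.40), completed the class.

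**Figure D4:**
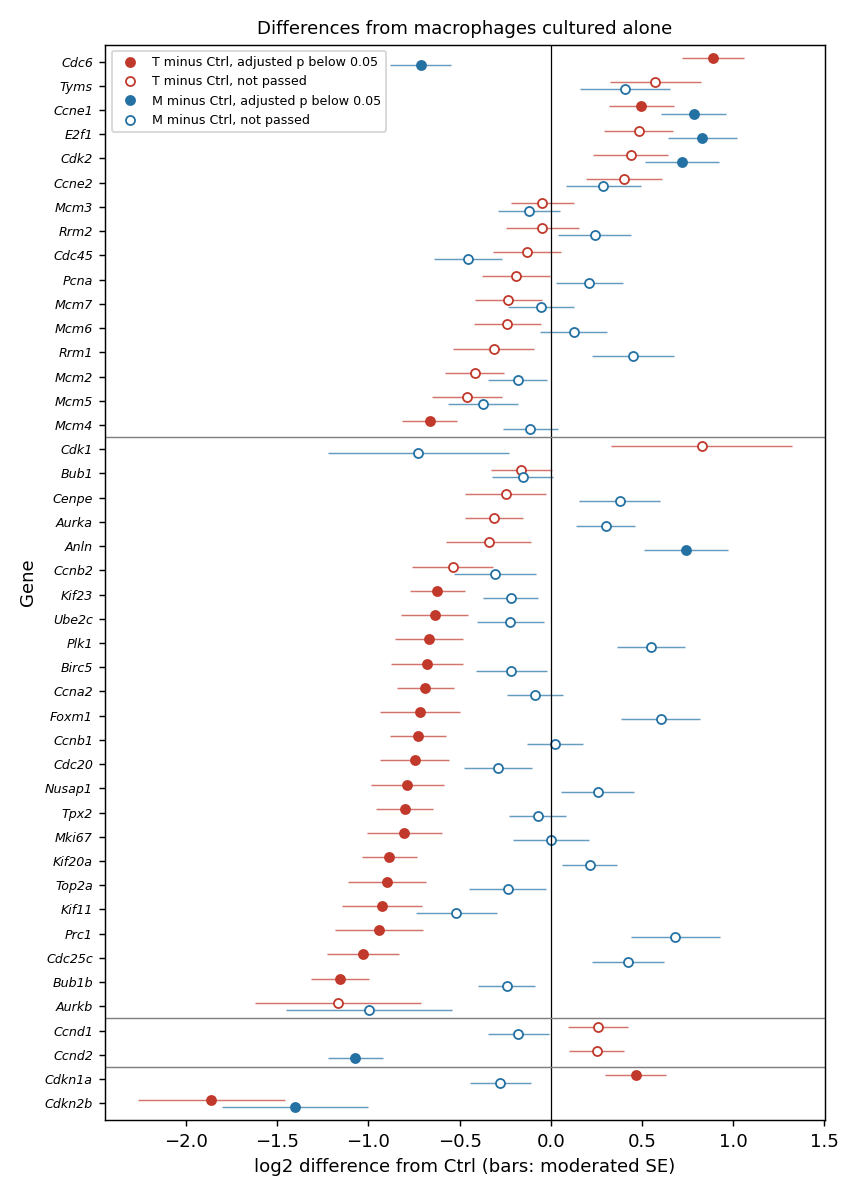
Log2 difference of each tested member from Ctrl in T and in M, with the moderated SE as bars and filled points for an adjusted p below 0.05, in the order of the heatmap. Filled T points of mitotic members lie between -1.15 and -0.62, and their M points lie on both sides of 0 with 1 filled (Anln).

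D-type cyclins carry growth factor signals to the cycle, and Ccnd2 was lower in M than in both other groups. Ccnd1 was at 2.92, 2.72 and 2.95 in Ctrl, 3.24, 3.03 and 3.098 in T and 2.47, 2.80 and 2.78 in M, with T above every Ctrl and M array, but no comparison of it passed the test (adjusted p = 0.227, 0.438 and 0.0807 for T against Ctrl, M against Ctrl and M against T). Ccnd2 was at 2.93, 2.78 and 3.01 in Ctrl, 3.18, 3.14 and 3.15 in T and 1.75, 1.93 and 1.81 in M. M lay wholly below the other groups, and Ccnd2 fell by 1.07 ± 0.15 from Ctrl to M (adjusted p = 0.000857) and was -1.32 ± 0.15 in M relative to T (adjusted p = 0.000168). T lay above Ctrl by 0.25 ± 0.15, which did not pass (adjusted p = 0.195).

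Cdkn1a encodes p21, a target of p53, and was at 3.79, 3.90 and 3.94 in Ctrl, 4.59, 4.15 and 4.28 in T and 3.51, 3.65 and 3.63 in M. By this brightest probe T was highest and M lowest, with no overlap between groups. Cdkn1a rose by 0.47 ± 0.17 in T (adjusted p = 0.0441), a call that ended under 18 of 23 alternatives, including the removal of any single array except Ctrl3 (adjusted p = 0.0531 to 0.141). It was -0.74 ± 0.17 in M relative to T (adjusted p = 0.00965). The other Cdkn1a probes gave 0.43 and 0.13 between T and Ctrl without passing (adjusted p = 0.0715 and 0.619 over all probes). On both of them M overlapped Ctrl. In M relative to T they gave -0.74, which passed (adjusted p = 0.0141 over all probes), and -0.50, which did not. Cdkn2b encodes p15, an inhibitor of the kinases of D-type cyclins, and was at -4.70, -4.83 and -4.95 in Ctrl, -7.10, -6.66 and -6.31 in T and -6.10, -5.36 and -7.23 in M. Its probe was well above background on 3 Ctrl arrays, 0 T arrays and 1 M array. With the scaling of the main fit, Cdkn2b was at least 2.81-fold lower in T than in Ctrl. Over the alternatives its log2 difference between T and Ctrl ran from -2.05 to -0.72, so that bound holds for the main processing only. The call in T ended with quantile normalization. Cdkn2b was tested through its Ctrl arrays alone, the group where it is high. Its place among the members called lower in T and in M is therefore a description and no p-value is given. The M arrays lay below every Ctrl array, and the call in M ended under 13 of 21 alternatives, among them without Ctrl1, Ctrl2, M1, M3 or T2.

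**Figure D5:**
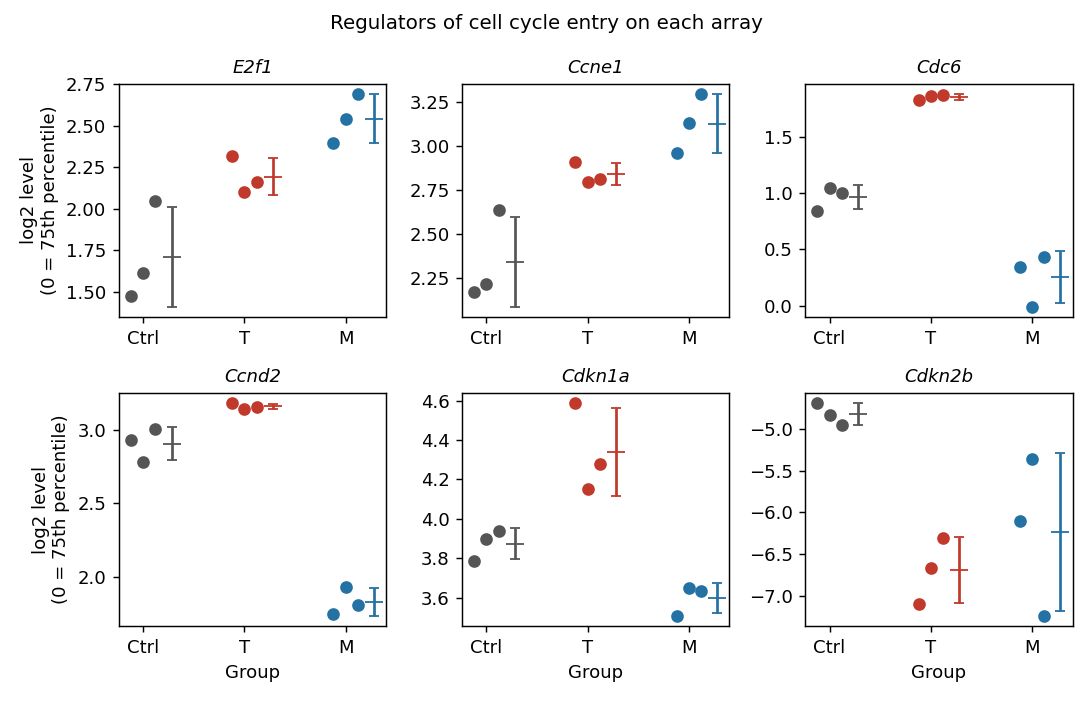
Log2 level of E2f1, Ccne1, Cdc6, Ccnd2, Cdkn1a and Cdkn2b on each array, with the group mean and SD (n = 3) and a separate vertical scale per gene. E2f1 and Ccne1 (by its brighter probe) are highest on the M arrays, Cdc6 and Cdkn1a on the T arrays, and Ccnd2 is lowest on the M arrays.

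Between M and Ctrl 23.3% of all genes passed, 12.2% as higher and 11.1% as lower, with a median difference of -0.09. Of the 44 members 4 were higher in M (E2f1, Ccne1, Cdk2 and Anln) and 3 lower (Cdc6, Ccnd2 and Cdkn2b), shares of 9.09% and 6.82% that lay below those of all genes. Arrays of M lay wholly above Ctrl for 6 members and wholly below for 8, where 36.3% of all genes did not overlap. E2f1 rose by 0.83 ± 0.19 (adjusted p = 0.0143), Ccne1 by 0.78 ± 0.18 (adjusted p = 0.0148) and Cdk2 by 0.72 ± 0.20 (adjusted p = 0.0331). For these the M arrays lay above every Ctrl array, of which Ctrl3 was the highest. The second Ccne1 probe differed by 0.37 between M and Ctrl without passing (adjusted p = 0.116 over all probes), and its mean level was higher in T (1.26) than in M (0.98), the opposite order to the brighter probe. Neither probe separated M from T in the test. Anln, which links actin and septins in the cleavage furrow, was at 0.02, 0.68 and 0.67 in Ctrl, -0.0021, 0.14 and 0.21 in T and 1.41, 0.84 and 1.35 in M, and rose by 0.74 ± 0.23 in M (adjusted p = 0.0443). Cdc6 fell by 0.71 ± 0.17 (adjusted p = 0.017), while its dimmer second probe gave -0.42 without passing (adjusted p = 0.163 over all probes). None of the 4 rises passed without Ctrl1, Ctrl2 or M3 (for E2f1 adjusted p = 0.0542, 0.058 and 0.0632). Leaving out M1, T2 or T3 gave 2 higher members, and without Ctrl3 9 were. Lower members numbered 1 without Ctrl2 (Ccnd2), 5 without M2 and 2 or 3 without any other single array. Over all genes 3993 were higher without Ctrl3, against 2236. Those lower numbered 538 without Ctrl2 and 2249 without M2, against 2044.

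The median difference of the mitotic members between M and Ctrl was -0.08, and 11 of 24 were above 0. Prc1 differed from Ctrl by 0.68 ± 0.24 (adjusted p = 0.0644), Foxm1 by 0.60 ± 0.22 (adjusted p = 0.0685) and Plk1 by 0.55 ± 0.19 (adjusted p = 0.0569), and none passed the test. Prc1 and Plk1 were higher on every M array than on any Ctrl array. Mki67 differed by 0.0027 ± 0.21 (adjusted p = 0.993). The replication members had a median of 0.17, with 3 higher and 1 lower.

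Between M and T 25.5% of all genes passed, 14.6% as higher and 10.8% as lower in M, with a median of 0.11. Of the 44 members 16 were higher in M than in T and 4 lower. The mitotic members gave 14 of the 16 (58.3% of 24, median 0.64) and the replication members the other 2, Mcm4 and Rrm1. The call of Mcm4 ended under 9 of 22 alternatives. That of Rrm1 ended under 10, among them leaving out any single M or T array. Among the mitotic calls, that of Top2a ended under 12, Aurka under 10, and Mki67 and Ccna2 under 7 each. Those of Cdc25c, Plk1 and Prc1 ended under 0. Prc1 differed most, by 1.63 ± 0.24 or 3.09-fold (adjusted p = 0.001). Cdc25c was 1.45 ± 0.20 (adjusted p = 0.000559), Foxm1 1.32 ± 0.22 (adjusted p = 0.00185) and Plk1 1.22 ± 0.19 (adjusted p = 0.00117) in M relative to T. Kif20a (1.10 ± 0.15, adjusted p = 0.000576) and Anln (1.08 ± 0.23, adjusted p = 0.00735) followed. The M arrays lay wholly above T for 19 of the 24, against 28.5% of all genes (48.3% did not overlap in either direction).

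Bub1b (0.91), Nusap1 (1.04), Mki67 (0.81), Ccnb1 (0.75), Tpx2 (0.73), Top2a (0.66), Aurka (0.61) and Ccna2 (0.60) were the other mitotic members higher in M. The second probes of Tpx2 (-0.91) and Mki67 (0.61) and 1 other Ccnb1 probe (0.23) did not pass (adjusted p = 0.1, 0.0903 and 0.628 over all probes). The remaining Ccnb1 probe (0.90) and the second Foxm1 probe (1.36) passed (adjusted p = 0.0206 and 0.00262 over all probes). Without T2 or T3 the count of higher mitotic members was 10, and without M3 it was 11. Over all genes 1612, 1567 and 1776 were higher in M without T2, T3 and M3, against 2690. Members lower in M than in T were Cdc6, Ccnd2, Cdkn1a and Cdk1. Cdc6 stood furthest apart at -1.61 ± 0.17, 3.04-fold (adjusted p = 0.000106), and kept its call under all 22 alternatives (adjusted p up to 0.025). The call of Cdk1 (-1.56 ± 0.50, adjusted p = 0.0438) rested on its brightest probe, whose M arrays lay far apart. The call ended without M1 (difference -0.93, adjusted p = 0.0949), and without any other single array except M2. In M relative to T the overlapping second probe gave 0.07 and the dimmer probe -0.05. Neither passed (adjusted p = 0.867 and 0.877 over all probes), so no direction is given for Cdk1 here either. The comparisons of T and M with Ctrl share the Ctrl arrays, and those of T and M with each other share arrays with both.

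Genes outside the 45 were read from lists of the same pathways. Of 58 other mitotic genes 24 were lower and 2 higher in T than in Ctrl, 41.4% and 3.45% against 27.3% and 17.6% of all genes, with a median of -0.42 against -0.14. The largest falls were those of the condensin subunit gene Ncapg (-1.99), Sgo2a (-1.22), which protects centromeric cohesin, and the kinetochore gene Knl1 (-1.16). Kif14 (1.95) and Hmmr (0.64), a motor and a spindle protein gene, were higher. In M relative to T 27 of the 58 were higher (46.6%, against 14.6% of all genes), led by Troap (1.55), the kinesin Kif2c (1.502) and Knl1 (1.41), and 2 were lower, Kif14 (-2.105) and Hmmr (-0.73). Against Ctrl, M had 2 higher, Arhgap11a (0.99) and the CDK phosphatase gene Cdc25b (0.71), and 0 lower in the limma fit (9 higher and 1 lower at an unadjusted p under 0.05).

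Of 46 other replication genes 15 were lower in T and 1 higher, with a median of -0.28 against -0.14 for all genes. The share of lower genes, 32.6%, was near the 27.3% of all genes, and that of higher genes was 2.17% against 17.6%. Gins1 (-0.96) of the replicative helicase and the DNA polymerase subunit gene Pold2 (-0.95) were among those that fell, and Rpa2 (0.65), a subunit of the single-strand binding protein, rose. M against Ctrl gave Clspn (0.79) and Exo1 (0.66) higher (4.35%, against 12.2% of all genes). M against T gave 11 higher (23.9%, against 14.6% of all genes), led by Orc2 (1.06), Dbf4 (0.98) and Tk1 (0.87), and Rpa2 (-0.72) lower.

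Regulators of the cycle changed in mixed directions. Of 37 tested, 10 were higher in T and 4 lower, 27.0% and 10.8% against 17.6% and 27.3% of all genes. Myc, a growth-promoting transcription factor, was 3.58 higher. Ccng2, an atypical cyclin of resting cells, was 1.59 higher. Fbxo5 (-0.85), an inhibitor of the anaphase-promoting complex, the retinoblastoma relative Rbl1 (-0.68) and Fzr1 (-0.64), an activator of that complex, fell most. In M against Ctrl 6 were higher, among them Myc (4.21) and Mybl1 (1.17), and Rb1 was lower (-0.87), 16.2% and 2.7% against 12.2% and 11.1% of all genes. In M against T 5 were higher, led by Fbxo5 (0.93), Fzr1 (0.87) and Skp2 (0.83), and 7 lower, led by Ccng2 (-1.85), Rb1 (-1.33) and E2f7 (-0.99), 13.5% and 18.9% against 14.6% and 10.8% of all genes.

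Genes in the list of p53 targets other than Cdkn1a, which also holds the p53 gene Trp53, were mostly higher in T. Of 22 genes 13 were higher and 2 lower than in Ctrl, 59.1% and 9.09% against 17.6% and 27.3% of all genes, with a median of 0.95 against -0.14. The death receptor gene Fas (2.57), the kinase gene Plk2 (2.31) and Trp53inp1 (2.02) rose most, and Perp (-0.74) and Bbc3 (-0.54), the gene for PUMA, fell. In M 7 were higher than in Ctrl (31.8%, against 12.2% of all genes), led by Plk2 (2.17), Fas (1.93) and Plk3 (1.48), and Ei24 was lower (-0.69). In M relative to T 0 were higher and 5 lower (22.7%, against 10.8% of all genes) by the same limma fit (1 and 9 at an unadjusted p under 0.05), led by Trp53inp1 (-2.60), Ei24 (-2.01) and Mdm2 (-1.21).

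Markers of other cells were read beside these results, and their part in them was not tested. Their calls stand beside the same shares of all genes, 17.6% higher and 27.3% lower in T, and 12.2% and 11.1% in M. Of 18 carcinoma epithelium markers 14 were tested, and Krt8, Cdh1, Cldn3 and Cdx2 were not well above background on all 3 arrays of any group. In T 3 were higher than in Ctrl, Krt19 (3.63), Elf3 (1.46) and Vil1 (0.84), and 6 lower, led by Ocln (-1.68), Epcam (-1.60) and Cldn4 (-1.35). In M, Lgals4 was lower (-0.98). The summed level of the tested markers, in multiples of the 75th percentile of the array, ran from 3.73 to 5.62 in Ctrl, 3.39 to 3.91 in T and 2.97 to 4.34 in M. Of 12 tested lymphocyte markers Lck (0.60) was higher and 6 lower in T, led by Cd3e (-2.62), Gzma (-2.57) and Cd3g (-1.74), and the sum ran from 3.21 to 4.42 in Ctrl, 2.88 to 3.11 in T and 2.56 to 3.27 in M. In M, Cd3d was higher (0.93) and Cd247 lower (-1.31). Of 9 tested granulocyte and mast cell markers S100a8 (3.06) and Tpsb2 (1.54) were higher and Elane (-2.56), Ngp (-1.32) and Mpo (-0.84) lower in T, with sums of 15.6 to 25.5 in Ctrl, 18.4 to 23.8 in T and 19.6 to 27.3 in M. S100a8 (4.97) and S100a9 (1.58) were higher and Tpsb2 (-0.71) lower in M. Of 4 tested mesothelial and fibroblast markers Col1a2 was lower in T (-0.84).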

How the data were processed

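RNA levels of 9 arrays (3 each of Ctrl, T and M) were used. The authors deposited 1 scanner file per array, made, per the submitters' processing notes, with Agilent Feature Extraction (version 10.7.3.1). Per the file headers its processed signal is an intensity for each spot after background subtraction, without scaling to other arrays. The authors also deposited a value table that mixes linear intensity (Ctrl1, M1, M2 and M3, column medians 195 to 246) with a log scale. Its other columns were deposited as log2 values with the 75th percentile of the array near 0 (medians -4.03 to -3.39). Within 0.001 log2, the M1 column matched the M2 scanner file and the reverse, and the T2 column matched no file, so its scale is inferred. The table served as an alternative. Each array had 62976 spots, no saturated spot, and 147 to 299 spots marked as outliers and left out.

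Control spots were removed, spots of a probe averaged, log2 taken and the array's 75th percentile subtracted. RefSeq accessions (assembly GRCm38.p6, names and promoters only) named 26703 of 55681 probes, 6145 kept the array's name and 22771 had no symbol. The brightest tested probe stood for a gene. limma 3.58.1 in R 4.3.3 (lmFit, eBayes) was fitted to all 9 arrays, so the SE is shared by the contrasts of a gene and p-values were adjusted over 18369 genes per contrast. The procedure was tested on simulated data. Where no array of a group read a gene well above background, the fold is a bound, computed per array against the dimmest of the probes read well above background or, where higher, the gene's own signal.

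Members and lists were chosen with earlier results of these data known. Named in full were the 6 called members with the largest difference per contrast and direction, with Mki67, Top2a, Pcna, E2f1, Foxm1, the D-type cyclins and the inhibitors. From each other list up to 3 called genes per contrast and direction were named, apart from some that are not reported here. Other members were named after their values were seen.

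Same-numbered T and Ctrl arrays deviated together from their group means (r = 0.545, 0.12 and 0.374), and 5 of 6 arrays correlated best with their own number. No label states a pairing, so the main fit used none, and its SE and p-values are unpaired. The replicate number was taken as a block only in an alternative. The number of arrays limits the precision.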

Additional observations from a re-analysis of the deposited data

How the results depend on the processing

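Counts of members called higher and lower, and the median of the replication members minus that of the mitotic members, were recomputed under each alternative. That median difference kept its sign in every alternative run for the 3 comparisons, but several of these could not change it. Median scaling, the replicate block, the fit of the 2 compared groups alone and the trended robust prior leave it as it is. So does leaving out an array of the group not compared. For T against Ctrl it was 0.63 (0.70 with quantile normalization, 0.55 with the deposited value table without its T2 column, 0.52 without Ctrl1 and Ctrl2, 0.55 to 0.66 leaving out 1 array). For M against Ctrl it was 0.25 (0.11 with normexp, 0.12 without M1 and M3, 0.14 without Ctrl1 and Ctrl2, 0.17 to 0.30 leaving out 1 array). For M against T it was -0.38 (-0.45 with the deposited table, -0.50 to -0.36 leaving out 1 array). Leaving out 1 array gave 1 to 6 members higher and 13 to 21 lower in T (11 to 18 mitotic), 0 to 9 higher and 1 to 5 lower in M against Ctrl, and 10 to 18 higher (10 to 16 mitotic) and 3 to 4 lower in M against T. Over all genes these runs gave 2320 to 4290 higher and 3205 to 5522 lower in T. They gave 1360 to 3993 higher and 507 to 3905 lower in M against Ctrl. In M against T they gave 1567 to 3684 higher and 1327 to 2489 lower. Median scaling gave 10 higher, 2 lower and 1 mitotic member lower in T, 7 higher and 1 lower in M against Ctrl, and 8 higher, all mitotic, in M against T. It moved the share of all calls that were higher from 39.1% to 65.9% in T, where quantile normalization gave 52.6%, and from 52.2% to 74.4% in M against Ctrl. Over all genes it gave 5150 higher and 2661 lower in T, against 3224 and 5013. In M against Ctrl it gave 3052 higher and 1049 lower over all genes, and in M against T 1602 higher. Quantile normalization gave 6 members higher in T, and 4057 over all genes. The deposited table gave 12 lower in T (11 mitotic), 2 higher and 0 lower in M against Ctrl, and 6 higher (6 mitotic) and 2 lower in M against T. Over all genes it gave 3819 lower in T, against 5013 in the main fit. In M against Ctrl it gave 1316 higher and 723 lower over all genes, against 2236 and 2044. In M against T these were 762 and 662, against 2690 and 1985. Without its T2 column the deposited table gave 1 higher in T, 2 higher in M against Ctrl and 10 higher in M against T. Over all genes these counts were 2312, 1799 and 1628. The replicate block and the fit with no filter on dim probes each gave 1 member higher in T (3001 and 3080 over all genes). The replicate block kept 17 mitotic members lower, and 19 with Ctrl and T arrays only (4933 and 5805 lower over all genes). Fitting the 2 compared groups alone gave 1 member higher and 1 lower in M against Ctrl, and 1405 and 788 over all genes. A trended robust prior gave 7 members higher there, and 2438 over all genes. The main fit gave 2236 higher and 2044 lower over all genes. Leaving out M1 and M3, or Ctrl1 and Ctrl2, kept 1 array of the group, so no counts are given for these settings. Both were chosen after seeing the data, like the 2 made from the table without T2 and from the Ctrl and T arrays alone. Averaging a gene's probes reversed Tpx2 to 0.22 in T and -0.089 in M against T, through its dim second probe. For other changes the cause was not tested. M arrays did not pair with the others by number (r = -0.27 to 0.03, 0 of 6 arrays best with their own number). A slide block was not run, because T lies on a slide of its own.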
